A study of Mus musculus with 8 samples.

Results

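The 10 genes described here are the core of the mouse microRNA pathway: the processing enzymes Drosha, Dgcr8 and Dicer1, the Argonautes Ago1, Ago2, Ago3 and Ago4, and the Tnrc6 genes Tnrc6a, Tnrc6b and Tnrc6c. They were chosen by name, as every entry of the 4 lists of m6A peaks that carries one of these gene symbols. Of 38705 peaks on 9779 genes, 83 peaks were assigned to 9 of the 10 genes, and Ago4 had no peak in any list. No entry carried an older symbol of these genes.

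m6A, a methyl mark on adenosines inside mRNA, was profiled by MeRIP-seq, in which mRNA fragments are pulled down with an antibody against m6A (the IP library) and compared with the same RNA before pull-down (the input library). The cells were mouse embryonic fibroblasts (MEFs) of wild-type C57BL/6 embryos taken at day 13.5 and used at passage 5 or 6. Control cells were untreated, and starved cells spent 2 h in nutrient-deprived medium, with 2 IP libraries and 2 input libraries in each group. The study asked how m6A on mRNAs changes when nutrients are withdrawn, and each IP library has its own peak list, called by the authors over its own input.

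A primary microRNA transcript is cut in the nucleus by Drosha with its partner Dgcr8, and the released hairpin is cut in the cytoplasm by Dicer1. One strand of the product is loaded into an Argonaute protein, which finds target mRNAs by pairing through the seed of the microRNA. Tnrc6 proteins (the GW182 family) bind Argonautes and recruit the deadenylase complexes that shorten the tails of the targets. The mRNAs of these proteins can themselves carry m6A, and only the mRNAs were measured here.

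The lists held 10103 and 9871 peaks in control replicates 1 and 2, and 9757 and 8974 peaks in starved replicates 1 and 2. Fold enrichment, the value given for every peak, is the ratio of IP over local input. Its median over a whole list was 12.2 and 12.3 in control cells and 14.6 and 14.7 in starved cells. The score of a peak reached its limit of 3100 in 17.0% and 13.2% of control peaks, and in 28.5% and 27.8% of starved peaks. The false discovery rate of the members' peaks, as given in the lists, ran from 7.52% to 74.6% with a median of 17.7%, near the median of 18.2% over all peaks. No reads or depths are in the lists, so the depth is unknown, and less m6A, less RNA of the gene and fewer cells with that RNA cannot be told apart when a peak is missing. Of 12 fibroblast markers, 10 had a peak in some library and 5 had one in all 4. Epithelial markers had a peak for 2 of 4 genes, endothelial markers for 2 of 4 and leukocyte markers for 1 of 4, and none of these had one in all 4 libraries.

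Overlapping peaks of the 4 libraries were merged into regions, which gave 40 regions on the 9 genes. The sequences below come from the 5 regions called in all 4 libraries and from the 2 Ago2 regions called in 3 libraries. Windows of the other regions called in 3 libraries are not shown. Each is the 25 bases around the GGAC nearest the mean centre of the region's peaks, read from GRCm38 on the strand of the gene, with GGAC, a common form of the m6A consensus, in capitals. A match describes the letters and is not a measured m6A position.
Dicer1, coding sequence of exon 23, chr12:104696669-104696693, minus strand: agagcatagcGGACtgtgtggaggc
Tnrc6a, coding sequence of exon 6, chr7:123170663-123170687, plus strand: tgggagcctgGGACagtgaattccc
Tnrc6a, coding sequence of exon 24, chr7:123192814-123192838, plus strand: tccctctgggGGACcccacattatt
Tnrc6b, coding sequence of exon 8, chr15:80879866-80879890, plus strand: ttggccctcaGGACaataatgacaa
Tnrc6c, 3′ UTR in exon 22, chr11:117762357-117762381, plus strand: ctctgggatgGGACatgctgttccc
Ago2, 3′ UTR in exon 19, chr15:73106162-73106186, minus strand: ttgtcctgtaGGACtgtgacattta
Ago2, 3′ UTR in exon 19, chr15:73097477-73097501, minus strand: aacagcaagtGGACtgttgtcgatc

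The first 5 windows lie in the regions called in all 4 libraries, and both Ago2 windows lie in regions called in 3 libraries. The GGAC shown lay 36.5 to 86.5 nt from the mean peak centre in the Tnrc6b, Tnrc6c and Ago2 windows. It lay 139.75 nt away in Dicer1 exon 23, 149 nt in Tnrc6a exon 6 and 221 nt in Tnrc6a exon 24. No peak in Dicer1 exon 23 or Tnrc6a exon 24 had GGAC in the 200 bases at its own centre. Within 200 bases of spliced transcript at the peak centre, on the sense strand, GGAC was present in 62.5% and 34.8% of the members' peaks in control replicates 1 and 2. In starved replicates 1 and 2 it was present in 53.3% and 35.3%. Over all peaks of a list the share was 62.1% to 64.7%. The members' share was below it in 3 of the 4 libraries, and the group means of 48.6% ± 19.6 and 44.3% ± 12.8 (SD, n = 2 each) differed by less than the spread between replicates (two-sided exact permutation p = 1.0).

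**Figure D1:**
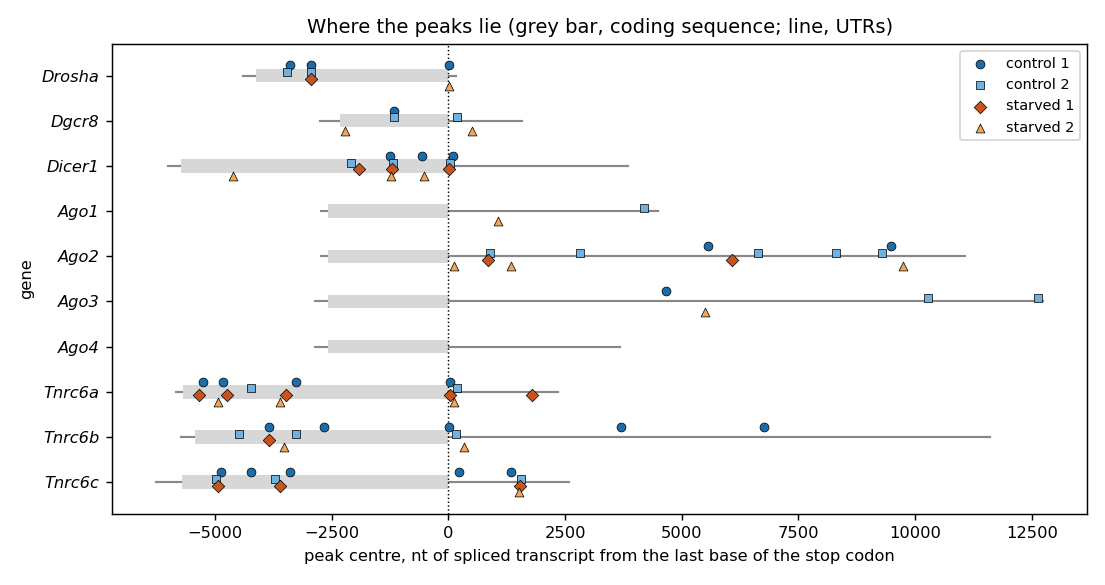
Peak centres on each gene, in nt of the spliced transcript from the last base of the stop codon (dotted line), with the coding sequence as a grey bar, the UTRs as a line and 1 symbol per peak of the 4 IP libraries. The centres of all 18 Argonaute peaks lie right of the stop codon. Processing enzymes and Tnrc6 genes have most of their peak centres inside the grey bar, and Ago4 has none.

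The 3 classes had the centres of their peaks in different parts of the transcript. Of the processing enzymes' 24 peaks that could be placed on a coding transcript, 17 lay in the coding sequence, 5 around the stop codon (at most 100 nt away) and 2 further into the 3′ UTR. Of the 37 placed Tnrc6 peaks, 22 lay in the coding sequence, 3 at the stop codon and 12 in the 3′ UTR. All 18 Argonaute peaks had their centre in the 3′ UTR, in the last exon of the gene. None had it in the coding sequence or at the stop codon. By extent, an Ago2 peak of control replicate 2 and 1 of each starved replicate ran across the stop codon into the coding sequence. In the gene models the 3′ UTR takes 74.1% of the Argonaute transcripts, 48.1% of the Tnrc6 transcripts and 29.8% of the processing enzyme transcripts. Over all peaks of a list, 44.3% to 46.8% lay in the coding sequence, 12.1% to 13.1% at the stop codon and 35.8% to 38.1% in the 3′ UTR. The split was seen before it was described, so it is given without a test. The members' share at the stop codon was 10.5% ± 8.71 before and 9.61% ± 5.27 after starvation (SD, n = 2 each; two-sided exact permutation p = 1.0).

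Per length of exon, the Argonautes as a class had the fewest peaks, though not each of them. Over the 4 libraries Ago2 had a mean of 0.217 ± 0.102 peaks per kb (SD), above the 0.186 ± 0.127 of Tnrc6b by less than the spread, while Ago1 had 0.0691, Ago3 0.0631 and Ago4 0. As a class the Argonautes held 0.0691 and 0.184 peaks per kb in control replicates 1 and 2, and 0.0461 and 0.115 peaks per kb in starved replicates 1 and 2. The processing enzymes held 0.370 and 0.476 peaks per kb in control cells and 0.212 and 0.318 in starved cells. The Tnrc6 genes held 0.428 and 0.257 in control cells and 0.257 and 0.171 in starved cells. The Argonaute class was thus lowest in each of the 4 libraries. Processing enzymes exceeded Argonautes by 0.240 ± 0.0669 peaks per kb and Tnrc6 genes exceeded them by 0.174 ± 0.141 (mean ± SD of the within-library difference, n = 4, higher in 4 of 4 libraries in both cases). The two-sided exact sign-flip p was 0.125 for each, the smallest that 4 libraries can give, and 0.188 after Benjamini-Hochberg adjustment over the 3 pairs of classes. Tnrc6 genes and processing enzymes differed by -0.0661 ± 0.139 peaks per kb (exact p = 0.50), less than the spread between libraries.

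Fold enrichment ran the same way with less separation. The median fold of Argonaute peaks was 6.28 and 14.5 in control cells and 7.50 and 11.6 in starved cells. Over all libraries the median was 7.75 for the 12 Ago2 peaks, 15.7 for the 2 Ago1 peaks and 15.9 for the 4 Ago3 peaks. The high Ago1 and Ago3 folds were those of control replicate 2 (25.5 for Ago1, 19.5 and 22.4 for Ago3). Ago3 had 9.15 in control replicate 1, and in starved replicate 2 Ago1 had 5.93 and Ago3 12.3. The class without Ago2 was not tested. For processing enzymes the median of a library was 20.9 and 16.3 in control cells and 13.5 and 23.3 in starved cells. For Tnrc6 genes it was 14.4 and 9.54 in control cells and 16.4 and 21.3 in starved cells. Processing enzymes were above Argonautes in 4 of 4 libraries, by 0.88 ± 0.63 on the log2 scale (SD, n = 4, exact sign-flip p = 0.125, adjusted p = 0.375). Without Dicer1 that difference was 0.45 (exact p = 0.25). Tnrc6 genes were above Argonautes in 3 of 4 libraries, by 0.67 ± 0.83 (exact p = 0.25, adjusted p = 0.375), with control replicate 2 the exception. The difference of -0.22 ± 0.54 between Tnrc6 genes and processing enzymes was smaller than its spread (exact p = 0.375). It turned positive, to 0.062, with the median of per-gene medians, and to 0.21 without Dicer1.

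**Figure D2:**
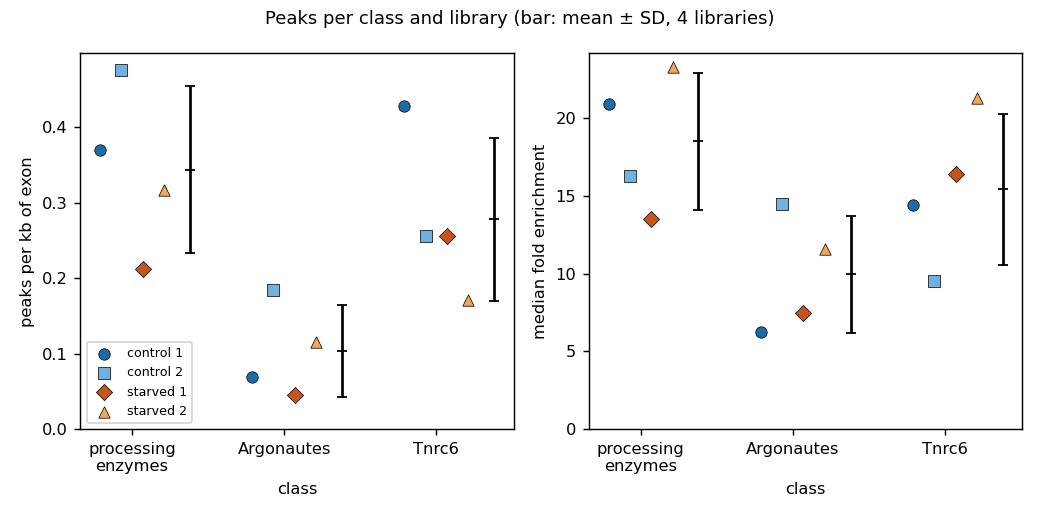
Peaks per kb of exon (left) and median fold enrichment (right) of the 3 classes, 1 symbol per IP library and a bar for the mean ± SD over the 4 libraries. Argonautes sit lowest in peaks per kb in every library, at 0.0461 to 0.184, while the ranges of processing enzymes and Tnrc6 genes overlap.

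The number of peaks on these genes was lower in starved than in control libraries. The lists held 25 and 26 such peaks in control replicates 1 and 2, and 15 and 17 in starved replicates 1 and 2. The groups did not overlap, with means of 25.5 ± 0.707 and 16 ± 1.41 (SD, n = 2 each) and a difference of -9.5 peaks. With peaks of a false discovery rate under 20% only, the difference was -3.0 peaks. The two-sided exact permutation p of 0.333 is the smallest that 2 libraries against 2 can give, so no comparison between control and starved cells here could reach 0.05. Per 1000 peaks of a list, the members took 2.47 and 2.63 in control cells and 1.54 and 1.89 in starved cells, and the groups did not overlap on this scale either. Both scales leave peak length aside, and the members' peaks ran from 200 to 1895 nt. Summed over the members, the bases under peaks did overlap between control and starved libraries. The median log2 fold of the members' peaks was 3.62 ± 0.31 before and 3.72 ± 0.10 after starvation (SD, n = 2 each; exact p = 1.0). That difference of 0.095 was smaller than the replicate spread, and its sign turned when weaker peaks were left out.

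By gene, Drosha and Tnrc6b had fewer peaks in both starved than in both control libraries. Drosha had 3 and 3 peaks in control cells and 1 and 1 in starved cells. Tnrc6b had 6 and 4 in control cells and 1 and 2 in starved cells. No member had more peaks in both starved libraries. These 2 of the 9 members with a peak are to be read against 7.56% of all genes with a peak that had fewer in both starved libraries, and against 5.42% that had more. In a list, 63.0% to 65.9% of the genes with a peak had only 1, which leaves less room for a drop than in Drosha or Tnrc6b. The background is thus not one of genes with as many peaks. Dicer1 had 3 peaks in each of the 4 libraries. Tnrc6a had 4 and 2 peaks in control cells and 5 and 3 in starved cells, and Tnrc6c had 5 and 3 against 3 and 1. Ago2 had 2 and 5 against 2 and 3, so the groups of these 3 genes overlapped or met.

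**Figure D3:**
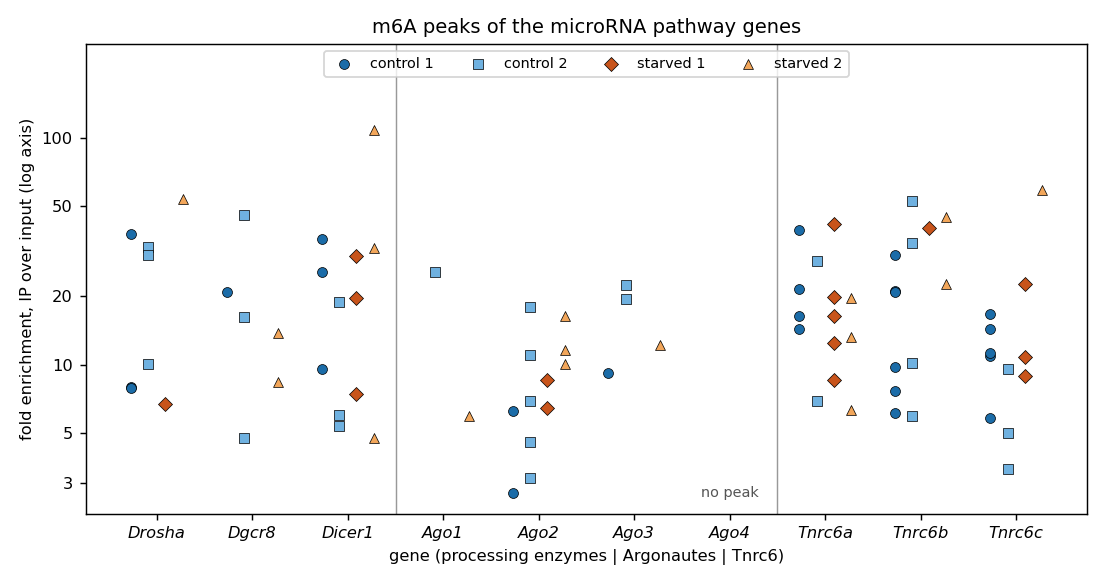
Fold enrichment of all 83 peaks (log axis) by gene, 1 symbol per peak, grouped by IP library. Values ran from 2.73 on Ago2 to 109.02 on Dicer1, and within most genes the symbols of control and starved libraries are interleaved.

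Of the 40 regions, 20 were called in 1 library, 8 in 2, 7 in 3 and 5 in all 4. Over all genes, 21168 regions were found, and 10.7% of them were called in all 4 libraries, against 12.5% (5 of 40) of the members' regions. Tnrc6 genes held 4 of the 5 and Dicer1 held the other. Of the 13 Argonaute regions, 0 were called in all 4 libraries and 11 in 1 library. Over all genes, 56.2% of regions were called in 1 library, and the 10.7% called in all 4 leaves little room below it among 13 regions. Of the 5 regions, 1 was higher in both starved than in both control libraries, where 22.9% of all such regions were, and 0 were lower, where 18.0% of all such regions were. Over all 40 regions, 3 had a peak in each control library and in no starved one (7.5%, background 4.15%), and 0 had a peak in each starved library and in no control one (background 3.20%). The median log2 difference, starved minus control, was 0.60 over the 5 regions (exact permutation p = 0.333) beside a median of 0.10 over all 2257 regions called in 4 libraries. With peaks of a false discovery rate under 20% only, it was 0.05.

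**Figure D4:**
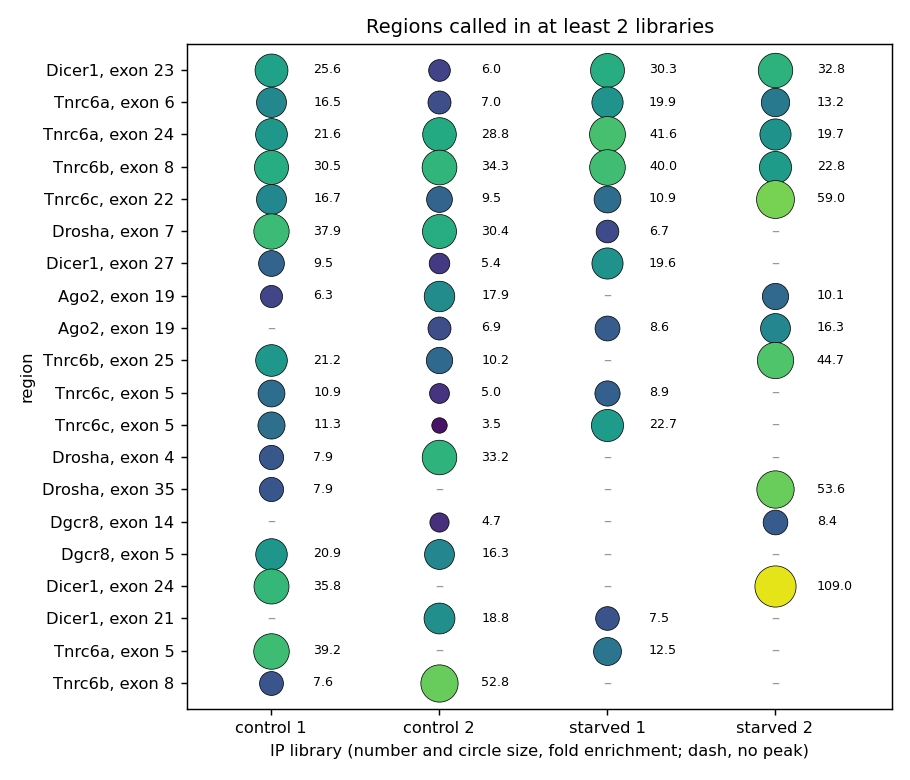
The 20 regions called in at least 2 libraries, with 1 row per region and 1 column per IP library, circle size and number giving the fold enrichment and a dash marking no peak. The 5 top rows are filled in all 4 columns, Dicer1 exon 23 among them, and the Drosha exon 4, Dgcr8 exon 5 and second Tnrc6b exon 8 rows are filled in both control columns alone.

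Drosha, the nuclear RNase III that makes the first cut, had 4 regions and none in all libraries. Its exon 4 coding region (chr15:12834307-12834662) had folds of 7.94 and 33.2 in the control pair and no peak after starvation. No GGAC lies in this region, so no window of it is shown. A peak over the whole of exon 7, 232 nt long, had the same start and end in 3 libraries, with folds of 37.9 and 30.4 in control and 6.68 in starved replicate 1. It was not called in starved replicate 2. The highest Drosha fold was at the stop codon, in exon 35, where control replicate 1 had 7.87 and starved replicate 2 had 53.6, and the other libraries of each group had no peak.

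Dgcr8, the RNA-binding partner of Drosha, had 4 regions. The exon 5 coding region (chr16:18280220-18280502) had folds of 20.9 and 16.3 in control replicates 1 and 2 and no peak after starvation. Its window holds this GGAC, 70.5 nt from the mean peak centre.
Dgcr8, coding sequence of exon 5, chr16:18280288-18280312, minus strand: tggatgagaaGGACccattgggggc
A region in the 3′ UTR, in the last exon, was called in control replicate 2 (4.74) and starved replicate 2 (8.37). The highest Dgcr8 fold, 45.7, was in control replicate 2 alone. Starved replicate 1 had no Dgcr8 peak at all.

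Dicer1, the cytoplasmic RNase III that releases the microRNA duplex, had the one region that separated the groups. In exon 23 (chr12:104696338-104697337) the folds were 25.6 and 6.01 in control replicates 1 and 2, and 30.3 and 32.8 in starved replicates 1 and 2. The mean log2 fold was 3.63 in control and 4.98 in starved libraries, a difference of 1.35. Without control replicate 2 it was 0.30, without control replicate 1 it was 2.39, and control replicate 1 lay close to the starved values. Ranked within each list, the peak stood at percentiles 74.0 and 21.3 in control cells and 73.9 and 75.4 in starved cells, so by rank the groups overlapped. The peaks covered 89.7% to 92.7% of the 871 nt of exon 23, and the region ran 193 bases past the edge of the exon in the coding model.

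The highest fold of any member was in Dicer1 exon 24 (chr12:104694478-104694746), with 35.8 in control replicate 1 and 109.02 in starved replicate 2. It was not called in the other library of either group. At the stop codon, in exon 27, the folds were 9.54 and 5.38 in control and 19.6 in starved replicate 1, with no peak in starved replicate 2. Exon 21 had a peak in control replicate 2 (18.8) and starved replicate 1 (7.45).

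Dicer1 mRNA is itself a known target of let-7, so the match to the let-7 seed, CTACCTC, was looked for on the sense strand of the Dicer1 transcript, a choice made after the peaks were seen. The mature let-7a sequence, from RefSeq (GRCm38.p6) and with its seed in capitals, and the 4 matches, with the 7 matching bases in capitals, are shown so that their place beside the peaks can be seen.
mmu-let-7a-5p: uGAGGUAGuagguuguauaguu
Dicer1 exon 16, chr12:104706551-104706575, minus strand: tactgtgttCTACCTCttaatgttg
Dicer1 exon 21, chr12:104702796-104702820, minus strand: tacaaccaaCTACCTCatatcccat
Dicer1 exon 21, chr12:104702688-104702712, minus strand: ctaacacatCTACCTCagatggaag
Dicer1 exon 24, chr12:104694688-104694712, minus strand: gattttggaCTACCTCataaccaag

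All 4 matches lie in the coding sequence. The exon 16 match was under no peak. The first exon 21 match was under a peak in control replicate 2, and the second in control replicate 2 and starved replicate 1. The exon 24 match was under the peak of control replicate 1 and that of starved replicate 2, the one with a fold of 109.02. Peaks covered 18.9% and 30.01% of the Dicer1 coding sequence in control cells and 22.9% and 24.8% in starved cells. Of the 12 Dicer1 peaks, 4 had CTACCTC in the 200 bases at their centre, where 1.24% to 1.52% of all peaks of a list did. Dicer1 was picked as a let-7 target and holds 4 matches, so this gap does not show a link between matches and peaks. The 4 Dicer1 peaks cover the same few sites in several libraries and are not independent of each other.

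Among the Argonautes, which hold the microRNA and pair it with its targets, Ago2 is the member known to cut a fully paired target. It had 12 of the 18 Argonaute peaks, in 7 regions spread over 10209 bases of the last exon. The region with the highest Ago2 fold, far into the 3′ UTR (chr15:73096808-73098085), had folds of 6.28 and 17.9 in control and 10.1 in starved replicate 2. The region nearest the stop codon (chr15:73105110-73107016) had 6.94 in control replicate 2 and 8.55 and 16.3 in starved replicates 1 and 2. Each was missing from 1 library, and the control and starved values of the first overlapped. The other 5 Ago2 regions were called in 1 library each, with folds of 2.73 to 10.99.

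Ago1, Ago3 and Ago4 are the other Argonaute paralogs. Ago1 had a peak of 25.5 in control replicate 2 and one of 5.93 in starved replicate 2, at different places. Ago3 had 4 peaks in 4 separate regions, at 9.15 in control replicate 1, 19.5 and 22.4 in control replicate 2, and 12.3 in starved replicate 2. No Ago1 or Ago3 region was thus seen in more than 1 library. Ago4 was at 0 peaks in all 4 lists, although its transcript of 6537 nt holds 3.21 GGAC per kb, close to the 3.46 per kb of Ago1.

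The Tnrc6 genes share an exon layout. Each has a very long internal coding exon, of 2583 nt in Tnrc6a (exon 6), 2340 nt in Tnrc6b (exon 8) and 2601 nt in Tnrc6c (exon 5). Of the 37 placed Tnrc6 peaks, 20 (54.1%) had their centre in these exons. Over all peaks of a list, 7.29% to 7.71% lay in internal exons of at least 1000 nt. That share includes genes with no such exon, so it is not a measure for genes of this layout. The coding sequences of Tnrc6a, Tnrc6b and Tnrc6c are 5691, 5433 and 5703 nt long, in transcripts of 8183, 17332 and 8847 nt. Of the other members, Dgcr8 alone has an internal exon that reaches 1000 nt (exon 2, of 1000 nt).

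**Figure D5:**
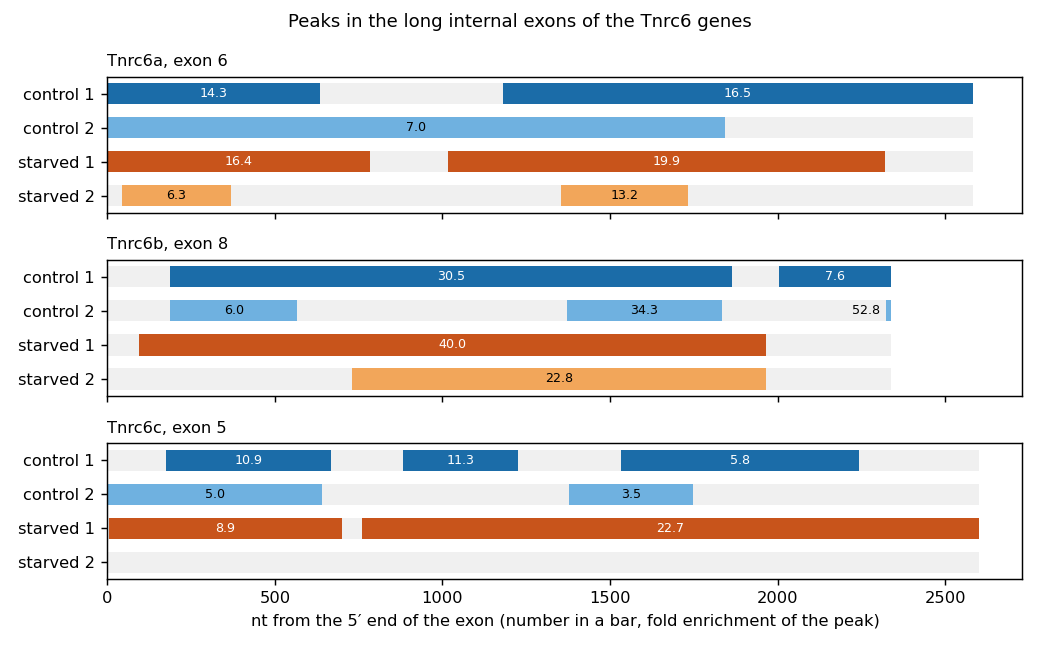
Peaks (bars, with fold enrichment) along the long internal exons of Tnrc6a, Tnrc6b and Tnrc6c, in nt from the 5′ end of the exon, 1 row per IP library. Tnrc6a and Tnrc6b are covered in all 4 libraries, by between 27.3% and 85.9% of the exon, and Tnrc6c is covered in 3 and bare in starved replicate 2.

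In Tnrc6a exon 6 (chr7:123169536-123172118) peaks covered 78.9% and 71.3% of the exon in control cells and 80.8% and 27.3% in starved cells. Its highest peak had folds of 16.5 and 6.95 in control cells and 19.9 and 13.2 in starved cells, so the groups overlapped. In Tnrc6b exon 8 peaks covered 85.9% and 36.7% in control cells and 79.9% and 52.8% in starved cells. The region called in all 4 libraries there (chr15:80878962-80880831) had folds of 30.5 and 34.3 in control cells and 39.9 and 22.8 in starved cells. In Tnrc6c exon 5 peaks covered 59.5% and 38.8% in control, 97.4% in starved replicate 1 and 0.0% in starved replicate 2. The starved replicates of Tnrc6c thus stood at opposite ends, with control between them. For none of the 3 exons was the difference in coverage larger than the replicate spread (two-sided exact permutation p = 1.0 for each, n = 2 per group).

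A second Tnrc6b region (chr15:80880872-80881389) starts 40 bases beyond the first and was called in control alone, with folds of 7.63 and 52.8. The control replicate 2 peak in it lies mostly past the edge of exon 8. The neighbouring exon 8 region was called in all 4 libraries.

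The last exons of the Tnrc6 genes held the other shared regions. At the stop codon and start of the 3′ UTR of Tnrc6a, in exon 24 (chr7:123192579-123193578), the folds were 21.6 and 28.8 in control cells and 41.6 and 19.7 in starved cells. In the Tnrc6c 3′ UTR, in exon 22 (chr11:117761793-117762859), they were 16.7 and 9.54 in control cells and 10.9 and 59.0 in starved cells. The log2 difference was 0.20 for Tnrc6a and 1.01 for Tnrc6c, and the groups overlapped in both, with 1 starved library high in each. The Tnrc6b stop codon region in exon 25 was called in 3 libraries, at 21.2 and 10.2 in control and 44.7 in starved replicate 2. On the log2 scale the exon 6 region of Tnrc6a differed by 0.60 and the exon 8 region of Tnrc6b by -0.10. The sign of each of the 4 Tnrc6 regions turned when 1 library was left out: without starved replicate 2 it was -0.21 for Tnrc6c and 0.30 for Tnrc6b, without starved replicate 1 it was -0.34 for Tnrc6a exon 24, and without control replicate 2 it was -0.018 for Tnrc6a exon 6. Dicer1 exon 23 kept its direction without any 1 of the 4 libraries.

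Of 64 other genes of the pathway, 50 had a peak, and 10 of their 119 regions (8.40%, background 10.7%) were called in all 4 libraries. The share of all expressed genes with a peak is not known. Counts of genes with a peak, here and in the 3 gene lists below, thus have no background. Among these 10, 2 were higher in both starved libraries and 3 were lower, beside backgrounds of 22.9% and 18.0%. Of all 119 regions, 5 were called in both control libraries alone (4.20%, background 4.15%) and 3 in both starved libraries alone (2.52%, background 3.20%). The median log2 difference was 0.22 over the 10 regions.

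Among nuclear processing and export cofactors, 6 of 10 genes had a peak, and 1 of 15 regions (6.67%) was called in all 4 libraries. Ddx17, an RNA helicase that works with Drosha, had the 1 region called in all 4 libraries, with folds of 27.4 and 23.1 in control cells and 8.20 and 5.56 in starved cells. Its log2 difference was -1.90, with no overlap of the groups. Hnrnpa2b1, an RNA-binding protein described as an m6A reader, had a region in control alone (5.39 and 4.52). Hnrnpa1, a related protein that binds some microRNA hairpins, had one in starved libraries alone (5.09 and 7.43).

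Among Dicer and loading cofactors and regulators of precursor microRNAs, 8 of 16 genes had a peak. Of their 24 regions, 2 (8.33%) were called in all 4 libraries. Adar, an enzyme that edits adenosine to inosine in double-stranded RNA, had folds of 26.6 and 7.53 in control cells and 36.6 and 48.9 in starved cells, a log2 difference of 1.58. As for Dicer1 exon 23, control replicate 2 was the lowest of the 4 values. Fkbp5, a co-chaperone of Hsp90, had a region in control libraries alone (9.73 and 10.4), as did Zswim8, a subunit of a ubiquitin ligase that removes Argonaute bound to certain targets (3.56 and 7.82).

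Among silencing effectors, 36 of 38 genes had a peak, and 7 of 80 regions (8.75%) were called in all 4 libraries. Cnot7, a deadenylase of the CCR4-NOT complex, had folds of 65.2 and 44.6 in control cells and 4.33 and 26.1 in starved cells, a log2 difference of -2.34. Ddx6, a helicase of the decapping machinery, had 66.9 and 57.5 in control cells and 34.6 and 26.6 in starved cells, a log2 difference of -1.03. Another Ddx6 region called in all 4 libraries had 18.2 and 16.9 against 11.1 and 20.3. Its groups overlapped, with a log2 difference of -0.23. Pan3, the adaptor of the PAN2 deadenylase, was higher in both starved libraries (16.6 and 24.9) than in control libraries (15.9 and 10.4), with a log2 difference of 0.66. Its 15.9 in control replicate 1 lay close to the 16.6 in starved replicate 1. The median fold of the whole list was 12.2 and 14.6 in those 2 libraries. Patl1, a decapping factor, had a region in control alone (12.6 and 36.6), as did the decapping enzyme gene Dcp2 (26.4 and 24.4). Eif4enif1, which binds the cap-binding protein eIF4E, had one in starved libraries alone (5.51 and 6.44), as did Wtip, a LIM protein of processing bodies (5.32 and 4.51).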

How the data were processed

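Peak lists of the 4 IP libraries (2 control, 2 starved) were used. The 4 input libraries have no list of their own. Per the methods and the submitters' processing notes, the authors used Cutadapt for trimming and HISAT2 2.0.4 for alignment to mm10, called peaks in each IP library against its own input with MACS2 and kept peaks on mRNA exons. The column names of the lists are those of an older MACS, so the caller's version is uncertain. The deposited fold enrichment is the ratio of IP over local input at a peak. The deposited score is minus 10 times log10 of the p-value, with a limit near 3100, and the deposited false discovery rate is a percent. A table of the authors' own comparison (fold changes, p-values and directions) was not used. No per-sample column was left unmapped (0).

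The members and gene lists were chosen with earlier results of these data known. Peaks of the 4 libraries that overlapped by at least 1 bp were merged into regions, and the fold of a region in a library was that of its highest peak. Peaks were placed by their centre on GENCODE M21 coding transcripts (GRCm38), with 100 nt either side of the stop codon as the stop window, and 4 of the 83 could not be placed. GGAC was searched in 200 bases of spliced transcript, on the sense strand. Peaks per kb used the union of a gene's exons. Libraries were the replicates. Control and starved libraries were compared by exact permutation (two-sided) and classes by exact sign flips over the 4 libraries. Nothing in the labels says whether replicates came from separate embryos or cultures, so p-values measure only the spread between these libraries.

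Regions were named when called in all 4 libraries, in both libraries of 1 group alone, or when they held the gene's highest fold. Pathway genes were named for the 3 largest and 3 smallest log2 differences among regions whose groups did not overlap, or for a region in 1 group alone. Other regions described were chosen after their values were seen. Alternatives were peaks of at least 5-fold, a false discovery rate under 20%, equal list lengths (8974 peaks), member assignment by exon overlap, 50% overlap for merging, other class definitions, lengths and windows, each library left out, and a replicate block. The steps were tested on simulated data (16 of 16 quantities recovered, 3000 simulated regions). Python 3.11.15, numpy 2.4.6, pandas 2.3.3, matplotlib 3.10.9 and samtools 1.23.1 were used.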

Additional observations from a re-analysis of the deposited data

How the results depend on the processing

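Of 94 alternative values over 15 results with all libraries kept, 83 kept their direction or, for counts, stayed within 1.5 times the reported count, 8 turned and 3 counts moved further. The 3 regions called in control libraries alone became 2 with a false discovery rate under 20% and 2 with 50% overlap for merging. The starved minus control difference in the members' peak count stayed negative under every alternative, and the class differences against Argonautes stayed positive under every alternative run. The small differences turned. The difference in median log2 fold became -0.19 with peaks of at least 5-fold, -0.13 with a false discovery rate under 20% and -0.076 with equal list lengths. The share near the stop codon became 8.97 percentage points with a rate under 20% and 1.18 points with a 50 nt window, and the share with GGAC became 0.90 points with a rate under 20%. With that rate, 0 regions were higher in both starved libraries and 1 was called in both starved libraries alone. Tnrc6 minus processing in median log2 fold became 0.062 with per-gene medians and 0.21 without Dicer1. The causes were not tested. Taking the mean fold of a library's peaks in a region, an alternative chosen after seeing the data, gave a median difference of 0.37 (exact p = 0.667).

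Leaving out 1 library loosens the region calls, since 3 libraries must then satisfy them. Regions higher in every starved library numbered 1 to 6 (6 without starved replicate 2) and regions lower 0 to 2 (2 without starved replicate 1). Regions called in starved libraries alone numbered 0 to 4 (4 without starved replicate 1), and regions called in control libraries alone numbered 5 to 11 (11 without control replicate 1). The difference in median log2 fold ran from -0.12 (without control replicate 2) to 0.31 (without control replicate 1). The stop codon share ran from -7.06 to 5.26 points and the GGAC share from -18.2 to 9.53 points, both turning positive without control replicate 1 or starved replicate 2. The median region difference ran from 0.14 without control replicate 2 to 1.00 without control replicate 1, and the peak count difference from -10.5 to -8.5. Tnrc6 minus Argonaute ran from 0.49 to 1.07 in log2 fold and from 0.113 to 0.214 in peaks per kb.

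With the replicate block, differences were the same and the exact p could not go below 0.50. Within numbered pairs, 2 regions were higher in starved libraries. Over 2257 regions, the fold deviations from the group means had a correlation of -0.017 between libraries of the same number, so the pairing was not used. Some of the members' values did go with the number. The GGAC share was 62.5% and 53.3% in control and starved replicates 1, and 34.8% and 35.3% in replicates 2. The stop codon share was 16.7% and 13.3% in replicates 1, and 4.35% and 5.88% in replicates 2. Whether libraries with the same number shared a batch was not tested.

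The lists hold no reads or depths, so no counting error or limit of detection is given, and a missing peak does not show that m6A was absent.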

Other observations

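Of the members' 83 peaks, 4 had their centre in an intron of the coding models, beside 6.65% of all peaks that could not be placed. All 4 were in control libraries and were 200 nt long, the shortest length in the lists, and each lay across an exon edge. They were on Tnrc6b (52.8 in control replicate 2 and 9.78 in control replicate 1), Dgcr8 (45.7) and Drosha (10.1, both in control replicate 2). Without these 4 peaks Drosha had 3 and 2 peaks in control against 1 and 1 in starved libraries, and Tnrc6b 5 and 3 against 1 and 2. Neither gene's groups thus came to overlap in peak count.

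Dgcr8 exon 2 holds 2 microRNA hairpins, which the complex of Drosha and Dgcr8 is known to cut. A peak of starved replicate 2 (chr16:18283959-18284686, fold 13.8) lay over both, the Mir1306 hairpin in the coding sequence and the miR-3618 hairpin in the 5′ UTR, and covered 72.8% of the exon. It was called in 1 of 4 libraries.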
